A study of Macaca mulatta with 2 samples.

Results

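The cells described here are T cells from the blood of 1 untreated rhesus monkey aged 6 years that carried RNA of ZBTB16 and none of TRAV10. CD4+ cells were taken from fresh blood mononuclear cells with magnetic beads, and CD8+ cells were then taken from among them, a sort for the circulating CD4+CD8+ double-positive (DP) T cells of 1 animal. RNA was read together with feature barcodes (FB, DNA tags on the CD4 and CD8 antibodies), and all 7923 cell barcodes had UMIs of both kinds. A unique molecular identifier (UMI) marks 1 captured molecule, and the RNA library held 32297887 gene UMIs. After the limits of 200 to 4000 genes and at most 20% mitochondrial UMIs, 7601 cells remained. The median kept cell had 3636 UMIs and 1283 genes.

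The members were selected on their own counts, as kept cells with at least 1 UMI of ZBTB16, at least 1 UMI of CD3D, CD3E and CD3G together, and no UMI of TRAV10. This gate took 150 of the 7601 kept cells (1.97%, 95% exact binomial interval 1.67 to 2.31). They were set beside 73 kept cells with UMIs of both ZBTB16 and TRAV10, and beside 7047 CD3+ cells with neither gene. Another 175 CD3+ cells had TRAV10 only, and 3 kept cells had ZBTB16 without a UMI of CD3 or TRAV10. With 1 animal there is no test across samples, so values are given with 95% intervals that cover counting error only.

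ZBTB16 encodes PLZF, a zinc finger transcription factor that directs T cells in the thymus towards an innate-like fate. Such cells, among them invariant natural killer T (NKT) cells, mucosal-associated invariant T (MAIT) cells and some gamma delta T cells, carry receptors of limited variety and answer cytokines and antigens quickly. Invariant NKT cells carry an alpha chain built with TRAV10, while the other kinds do not. KLRB1 encodes CD161, a lectin-like receptor found on many innate-like T cells. On Mmul_10, ZBTB16 lies on the plus strand of chromosome 14 from 107205938 to 107403230, and KLRB1 on the plus strand of chromosome 11 from 10090828 to 10103486.

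Most members lay at the edge of the gate. Of the 150 gated cells, 130 had exactly 1 UMI of ZBTB16, 17 had 2, 2 had 3 and 1 had 5, while a cell just outside had 0. The 73 cells with both genes were similar, with 54 at 1 UMI and 17 at 2. Only 3 gated cells had a single CD3 UMI, and the median over the gated cells was 11. On the other side of the gate, 9 of the 73 cells with both genes were there through a single TRAV10 UMI. A gene caught this sparsely is missed in many cells that express it, and in the 248 kept cells with TRAV10 a ZBTB16 UMI was found in 29.4%.

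The gate also favoured deeply read cells. The median was 4751 UMIs in the gated cells, with a range of 893 to 19263, against 3952 in cells with both genes and 3616 in cells with neither. Among CD3+ TRAV10-negative cells, the share with a ZBTB16 UMI was 0.487% (0.196 to 1.0) in the lowest of 5 equal bins of UMIs per cell and 4.51% (3.50 to 5.72) in the highest. No ZBTB16 UMI was found in 86 kept cells, called B gene cells here, that lacked CD3 and held 3 or more UMIs of B cell genes. Where a limit is given for a count of 0, it is the share that 3 cells would make. Here that share is 3.49%, which is above the share of kept cells in the gate. Free RNA as the source of single UMIs was not tested further. For the same reason, shares of cells with a UMI were also taken after thinning, in which 2000 UMIs were drawn at random from each cell, which left 146 gated cells, 73 with both genes and 6627 with neither.

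**Figure D1:**
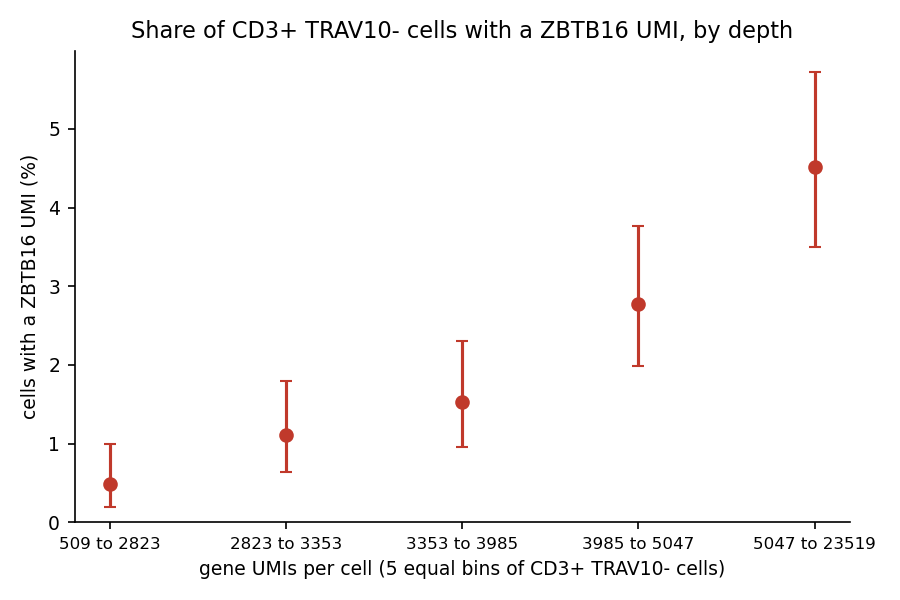
Share of CD3+ TRAV10-negative cells with a ZBTB16 UMI (y axis, %) in 5 equal bins of those cells ordered by gene UMIs per cell (x axis); bars are 95% exact binomial intervals. The share rises from 0.487% in the bin with fewest UMIs to 4.51% in the bin with most.

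The label was checked against KLRB1, the marker that the gate did not use. A KLRB1 UMI was found in 47 of the 150 gated cells (31.3%, 24.0 to 39.4), in 23.2% (22.3 to 24.2) of cells with neither gene, in 74.0% (62.4 to 83.5) of cells with both, and in none of the 86 B gene cells. After thinning, the shares were 24.0% (17.3 to 31.7) in gated cells, 17.7% in cells with neither and 57.5% in cells with both. Summed over cells and scaled to counts per 1000000 UMIs (CPM), KLRB1 was at 218 CPM (187 to 253, Poisson interval) in gated cells, 137 CPM in cells with neither and 669 CPM in cells with both. The log2 ratio of gated cells over cells with neither was 0.67 (0.44 to 0.89). This difference rested on 28 cells: 18 gated cells with at least 2 UMIs of TRBV11-1 and 10 with TRGV9, a choice made after their values had been seen, held 111 of the 176 KLRB1 UMIs. KLRB1 was found in 16 of the 18 and in 9 of the 10, so that leaving them out had to lower it, and the values without them are a description. Without them the KLRB1 ratio was -0.55 (-0.92 to -0.19). With cells of the same segments also left out of the cells with neither gene, which kept 6918, it was -0.48 (-0.86 to -0.13). The share was then 18.0% (11.7 to 26.0) in the gated cells and 22.7% in the cells with neither, inside that interval. By this marker 103 of the 150 gated cells, most of the gate, showed no KLRB1.

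Against CD3+ cells with neither gene, the gated cells had more RNA of THY1 and TYROBP and less of GZMB, CCL5 and CX3CR1, which are 3 of the 12 cytotoxic genes at 10 CPM or more. Genes were compared as a ratio of CPM + 10, which understates the ratio of low genes, among 6696 genes at 10 CPM or more over all kept cells, leaving out the gate genes. Of these, 6 were at least 2-fold higher (0.0896%) and 40 were at least 2-fold lower (0.597%), and the median log2 ratio of all genes was -0.06. The 6 higher genes were TRBV11-1, TRGV9, THY1, TYROBP and a pair of features without a symbol, ENSMMUG00000061081 and ENSMMUG00000062085. The counts move with the pseudocount and with the number of cells, and their values under other settings are given with the limits.

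THY1, which encodes the surface glycoprotein CD90, led the genes with a symbol that are not receptor segments. It had a UMI in 36.0% (28.3 to 44.2) of gated cells, 47.9% (36.1 to 60.0) of cells with both genes, 12.3% (11.6 to 13.1) of cells with neither and 6.98% of B gene cells. The THY1 level was 108 CPM (86.3 to 133) against 46.8 CPM in cells with neither, a log2 ratio of 1.20 (0.87 to 1.52). After thinning, the THY1 shares were 15.8% (10.3 to 22.7), 32.9% and 6.82% (6.23 to 7.45). Without the 28 cells the THY1 ratio was 1.11 (0.74 to 1.46). On the CPM + 10 scale of the 2-fold call it was 1.05, and it fell under 2-fold without the 28 cells, at 0.97, and with the cells of neither gene weighted to the UMI counts of the gated cells, at 0.87. THY1 also lies on chromosome 14, from 112476657 to 112482017.

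TYROBP encodes DAP12, an adaptor through which activating receptors of NK cells signal. Its level was 167 CPM (140 to 198) in gated cells, 76.7 CPM (73.5 to 80.0) in cells with neither and 966 CPM in cells with both, so the gated cells lay between the other groups. A TYROBP UMI was found in 31.3% of gated cells, 14.5% of cells with neither and 89.0% of cells with both. The share in B gene cells was 33.7%, with a median of 4137.5 UMIs per cell, so the share in the gated cells alone is not read as expression. Without the 28 cells the log2 ratio of TYROBP over cells with neither was 0.81 (0.49 to 1.11), from 1.13 (0.86 to 1.38) with them. Among the 86 gated cells with another named TRAV segment, the TYROBP ratio of CPM + 10 was under 2-fold, at 0.24 on the log2 scale, from 1.03 in all gated cells. The cells with neither gene were not restricted in this way. None of the 10 gated cells with TRGV9, of which 9 had TYROBP, was among the 86. The TYROBP ratio was 2.04 at 2 or more UMIs of ZBTB16 and 1.99 with gates set on thinned counts. KLRB1 and TYROBP were found together in 22 gated cells, KLRB1 alone in 25, TYROBP alone in 25 and neither in 78. Of the 73 cells with both gate genes, 50 had both KLRB1 and TYROBP and 4 had neither of them.

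CCR6, a chemokine receptor of Th17 and MAIT cells, had a UMI in 33 gated cells (22.0%, 15.7 to 29.5) and in 7.25% (6.66 to 7.88) of cells with neither. Its level was 58.2 CPM (42.8 to 77.4) against 26.1 CPM, and the thinned CCR6 shares were 8.22% (4.32 to 13.9) and 3.79% (3.34 to 4.28). Its log2 ratio on the CPM + 10 scale was 0.92, and it was 0.25 with gates set on thinned counts and 0.14 at 2 or more UMIs of ZBTB16. B gene cells, which express CCR6 themselves, had it in 10.5%. None of the 28 cells with TRBV11-1 or TRGV9 had a CCR6 UMI, and without them the CCR6 share was 27.0% (19.4 to 35.8). IL23R, the receptor for a cytokine that sustains Th17 cells, was found in 8 gated cells (5.33%, 2.33 to 10.2) and in 0.809% (0.613 to 1.05) of cells with neither. IL17A had no UMI in the gated cells, which allows a share of up to 2.0%, and 0.227% of cells with neither had one. Other genes at the top of the list were MYC, at 69.4 CPM against 41.7, MAN1A1, at 63.2 against 38.4, and PAG1, at 108 against 68.3.

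Of the 40 features that were lower in the gated cells, 7 were T cell receptor segments, 13 had no symbol and 20 were other genes, among them several of cytotoxic cells. GZMB, the protease of killer cell granules, was at 498 CPM (451 to 549) in gated cells, 646 CPM in cells with both genes and 1272 CPM in cells with neither. A GZMB UMI was found in 27.3% (20.4 to 35.2) of gated cells and 44.9% (43.7 to 46.1) of cells with neither. CX3CR1, a receptor that keeps effector cells in the blood, was at 14.9 CPM against 66.7, CCL5, a chemokine of effector cells, at 124 against 297, and ZEB2, a transcription factor of terminal effectors, at 33.5 against 86.8. PDCD1, the inhibitory receptor PD-1, was at 54.5 CPM against 132. Of the 12 genes of the cytotoxic list at 10 CPM or more, the other 9, among them PRF1, at 60.7 CPM against 71.1, did not pass 2-fold, and the list had a median log2 ratio of -0.70 where all genes had -0.06. Without the 28 cells with TRBV11-1 or TRGV9 the log2 ratio of GZMB was -2.04 (-2.24 to -1.85), from -1.35 (-1.50 to -1.21) with them. Weighting the cells with neither gene to the UMI counts of the gated cells gave GZMB a log2 ratio of -0.88 on the CPM + 10 scale, from -1.34. The same weighting also brought CCL5 (-0.87, from -1.20), ZEB2 (-0.70, from -1.16) and PDCD1 (-0.84, from -1.14) under 2-fold, while CX3CR1 was at -1.27, from -1.62.

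Hemoglobin transcripts were also lower, and for HBB this rested on few cells. HBB had no UMI in the gated cells, and its 93.1 CPM in cells with neither came from 12 of 7047 cells. Where 3 or more UMIs of CD3 were required, the log2 ratio of CPM + 10 was -0.055 for HBB, from -3.37, and -1.11 for HBA, from -2.76. HBA had a UMI in 6.67% of gated cells and 12.2% of cells with neither. Of the 4 genes of the cycling list, only STMN1 was at 10 CPM or more, at 68.1 CPM against 109, a log2 ratio of -0.61 on the CPM + 10 scale. MKI67, a marker of cycling cells, had a UMI in 4.67% (1.90 to 9.38) of gated cells and 2.75% (2.38 to 3.16) of cells with neither, and TOP2A in 0.667% and 1.60%. PTTG1, the securin that restrains separation of sister chromatids in mitosis, was among the lower genes, at 8.67 CPM against 47.4. None of the 5 genes of cell handling passed 2-fold, with a median of 0.19. FOS was at 2090 CPM in the gated cells and 1834 CPM in cells with neither.

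**Figure D2:**
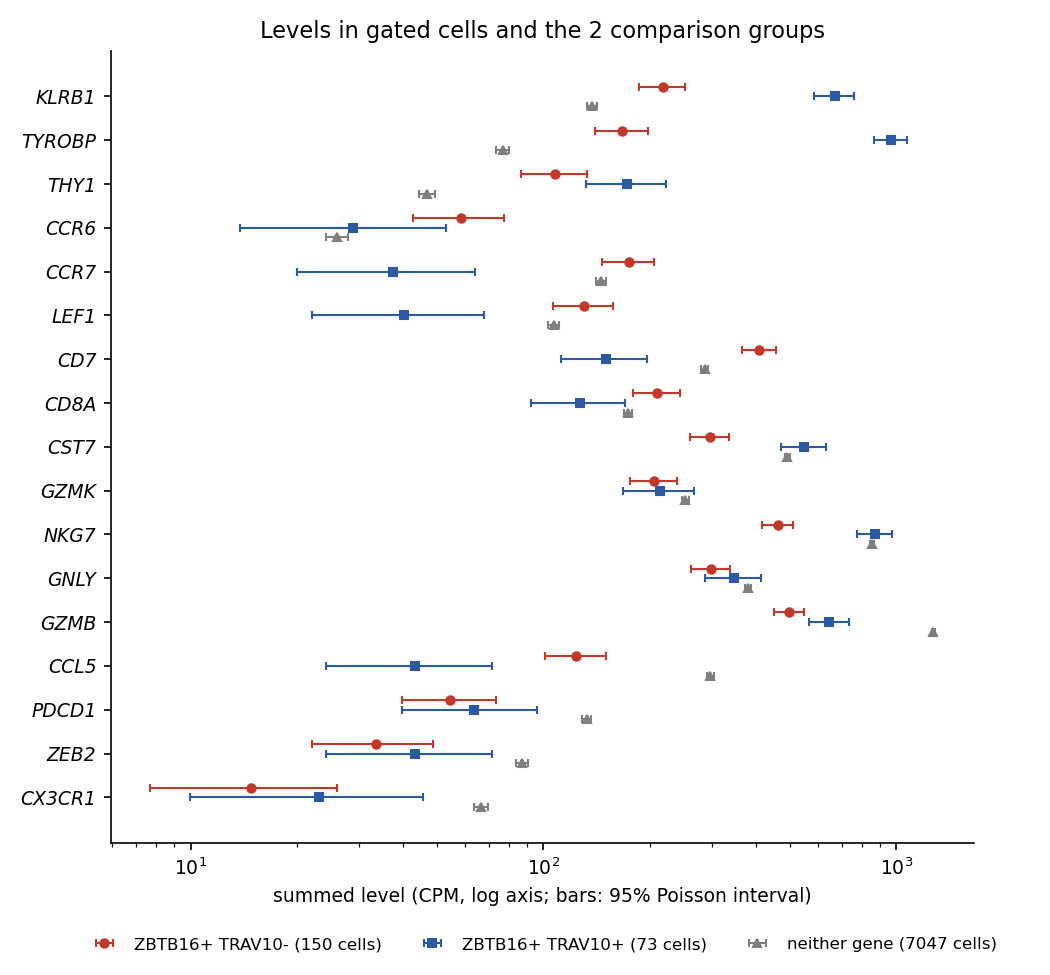
Summed level of 17 genes (x axis, CPM on a log axis) in the 150 gated cells (red circles), the 73 cells with ZBTB16 and TRAV10 (blue squares) and the 7047 CD3+ cells with neither (grey triangles); bars are 95% Poisson intervals. TYROBP in the gated cells lies between the 2 other groups, and CX3CR1 and GZMB lie below the cells with neither.

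Naive genes and some homing receptors were higher in the gated cells than in the cells with both genes. Of the same 6696 genes, 174 were at least 2-fold higher in the gated cells (2.6%) and 82 lower (1.22%), with a median log2 ratio of 0.00 over all genes. CCR7, which guides naive and central memory T cells to lymph nodes, was at 175 CPM (147 to 206) in gated cells and 37.5 CPM in cells with both, a log2 ratio of 2.22 (1.40 to 3.16). A CCR7 UMI was found in 46.0% of gated cells, 13.7% of cells with both and 29.4% of cells with neither, and after thinning in 24.0%, 5.48% and 18.4%. Against cells with neither, the log2 ratio of CCR7 on the CPM + 10 scale was 0.25, and it was -0.37 where the gates were set on thinned counts. LEF1, a transcription factor of naive T cells, was at 130 CPM against 40.4, and CD7, a surface protein that naive T cells carry, at 409 against 150. Of the 5 genes of the naive list at 10 CPM or more, 3 were at least 2-fold higher than in cells with both and none was lower. CCR9, a gut homing receptor, was found in 11.3% of gated cells and in none of the 73 cells with both, which allows up to 4.11%. CCR4 was likewise found in 8.0% of gated cells and in none of those 73. Of the 14 homing receptors at 10 CPM or more, 3 were at least 2-fold higher, CCR7, CCR9 and the gut integrin chain ITGB7, and none was lower. CXCR3, at 40.9 CPM against 60.6, and CCR2, at 13.6 against 31.7, had lower values in the gated cells.

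The innate receptors went the other way. Of the 9 innate receptors and adaptors at 10 CPM or more, 6 were at least 2-fold lower in the gated cells than in cells with both genes, and none was higher. Over all 6696 genes of this comparison, 1.22% were lower and 2.6% higher. KLRG1, an inhibitory lectin-like receptor, was at 54.5 CPM against 199, and MAP3K8, a kinase of inflammatory signalling, at 27.3 CPM (17.1 to 41.3) against 138 (102 to 184). A MAP3K8 UMI was found in 10.0% of gated cells, 45.2% of cells with both, 8.33% of cells with neither and 44.2% of B gene cells. IFI27, an interferon-induced gene, was at 74.3 CPM against 291, GZMM, a further granzyme, at 79.3 against 199, and CTSW, a protease of killer cells, at 129 against 271. At 2 or more UMIs of ZBTB16, required in both groups, 20 gated cells and 19 cells with both genes were left. The log2 ratio of CPM + 10 of those gated cells over those with both genes turned to 0.31 for CTSW and to 0.046 for KLRB1. IRF1, a transcription factor induced by interferon, was at 233 CPM against 499. Cytotoxic genes went both ways, with 2 of 12 at least 2-fold lower in the gated cells and 1 higher, CCL5, at 124 CPM against 43.3. Without the 28 cells with TRBV11-1 or TRGV9 the CCL5 ratio of CPM + 10 was under 2-fold, at 0.63 on the log2 scale, from 1.33.

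A feature without a symbol, ENSMMUG00000059234, had a UMI in 63 of the 73 cells with both genes and in 1 of the 150 gated cells. It was singled out after its values had been seen. It was found in 36 of 7047 cells with neither gene, a share of 0.511%, and the share among gated cells was 0.667%. In the 175 cells with TRAV10 only it was found in 83. This feature was rare in the gated cells and in the cells with neither gene. Whether TRAV10 was missed in some gated cells was not tested.

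Of the 17 innate T cell transcription factors at 10 CPM or more, 1 was at least 2-fold lower than in cells with neither gene, ZEB2, and none higher, with a median of -0.15, where 0.597% and 0.0896% of all genes were lower and higher. RORA, which acts in Th17 and MAIT cells, had a UMI in 37.3% (29.6 to 45.6) of gated cells and 33.5% of cells with neither. SATB1, a chromatin organizer of developing T cells, was at 144 CPM (119 to 172) against 95.5. Of the 8 cytokine receptors at 10 CPM or more, none passed 2-fold in either direction. IL7R, the receptor of naive and memory T cells for interleukin 7, was at 1404 CPM against 1126 and was found in 97.3% of gated cells.

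Of the markers of MAIT cells, 6 were at 10 CPM or more, and none was 2-fold apart from cells with neither gene, with a median of 0.42. DPP4, which encodes CD26, had a UMI in 43.3% (35.3 to 51.7) of gated cells and 26.2% of cells with neither, and in 25.3% and 14.6% after thinning. IL18R1 was found in 9.33% (5.20 to 15.2) against 4.09%, and SLC4A10, the most particular of these markers, in 1.33% against 1.08%. The segments of the MAIT receptor, TRAV1-2 and TRBV20-1, and the gamma delta constant genes TRDC, TRGC1 and TRGC2 had no match by name and were not analysed here. No class of innate-like T cell is therefore given to the gated cells. Of the 12 NK markers, 2 were at 10 CPM or more: TYROBP, which was at least 2-fold higher than in cells with neither, and KLRF1, at 63.2 CPM against 70.3. NCAM1, FCGR3, FCER1G, SH2D1B, KIR3DL0, KIR3DL2 and KIR2DL4 had no UMI in the gated cells, which allows up to 2.0% each. NCR1 was found in 1 gated cell, KIR3DH in 2 and KIR3DL12 in 5.

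Markers of other blood cells were rare. CD14, LYZ, S100A8, S100A9, FCN1 and VCAN, the monocyte markers, had no UMI in the gated cells. The platelet marker PF4 had 1 UMI and PPBP none. B cell genes were found in more cells, with CD79A in 10.0% of gated cells and 6.10% of cells with neither. At least 3 UMIs of B cell genes were found in 3 gated cells (2.0%) and in 1.72% of cells with neither. Of these genes, MS4A1 had 25 UMIs from 3 gated cells, and all 3 lacked KLRB1.

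The gated cells were not uniform, and KLRB1 divided them. The 47 cells with a KLRB1 UMI had a median of 4359 UMIs and the 103 cells without one 4794. Of 6695 genes, 241 were at least 2-fold higher in the cells with KLRB1 (3.6%) and 223 lower (3.33%). These shares are above those of the other comparisons, and they come from fewer cells. Of the 12 cytotoxic genes at 10 CPM or more, 9 were at least 2-fold higher and none lower, with a median log2 ratio of 1.77 where all genes had 0.08. Of the 5 naive genes, 3 were at least 2-fold lower and none higher.

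GZMK, a granzyme of memory and innate-like T cells, was at 544 CPM in gated cells with KLRB1 and 60.2 CPM in those without, a log2 ratio of 3.18 (2.62 to 3.76). It had a UMI in 30 of 47 cells with KLRB1 and in 10 of 103 cells without. NKG7, a membrane protein of cytotoxic granules, was at 1080 CPM against 195, and CST7, a protease inhibitor of the same granules, at 680 against 131. CTSW was at 317 CPM against 47.8, GNLY, which encodes the pore-forming granulysin, at 668 against 140, and GZMB at 1121 against 230. CCR7 went the other way, at 57.7 CPM against 225, and was found in 8 of 47 cells with KLRB1 and in 61 of 103 without. LEF1 was at 49.5 CPM against 165 and CD7 at 214 against 492. TNFRSF4, the costimulatory receptor OX40, was found in 1 of 47 cells with KLRB1 and in 26 of 103 without. The early response gene EGR1 was lower too, at 4.12 CPM against 115, but its 65 UMIs in cells without KLRB1 came from 8 cells, and it was found in 68.6% of B gene cells. B cell genes moved with the split, with all 3 at 10 CPM or more at least 2-fold lower in the cells with KLRB1 and a median of -2.39. CD79A had 2 UMIs in the cells with KLRB1 and 27 in those without, and MS4A1 0 and 25. The part of B cell RNA in these differences was not tested. THY1 and CCR6 did not separate the 2 sets, with THY1 in 40.4% against 34.0% of cells and CCR6 in 19.1% against 23.3%.

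Receptor segments told the cells with KLRB1 apart further. Named segments cover 25 of the alpha and 21 of the beta chain, and reads are not full receptor sequences, so a cell without a named segment may carry an unnamed one. Another named TRAV segment was found in 86 of the 150 gated cells (57.3%), in 53.1% of cells with neither gene and in 9 of the 73 cells with both. TRBV11-1, a beta chain segment, had a UMI in 20 gated cells (13.3%) and in 4.64% of cells with neither. Of the gated cells with TRBV11-1, 18 had at least 2 UMIs, and these 18 were examined as a subset chosen after their values had been seen. TRAV19 was found in 16 of the 18 and TRGV1 in 13.

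The pair of segments was then looked up in all CD3+ TRAV10-negative cells, with or without ZBTB16. It was chosen for its frequency among the gated cells, which are counted again here, so its ZBTB16 share is a description and not a separate observation. Of 54 cells with both TRBV11-1, at 2 or more UMIs, and TRAV19, 16 had a ZBTB16 UMI (29.6%, 18.0 to 43.6). With TRBV11-1 but not TRAV19, it was 2 of 44 cells (4.55%, 0.555 to 15.5), and with TRAV19 but no TRBV11-1, 6 of 674 cells (0.890%, 0.327 to 1.93). The median depths of these cells were 4130.5, 4146.5 and 3349.5 UMIs. Of the 54 cells, the 16 gated ones included, 43 had KLRB1, 53 had NKG7, 47 had GZMB and 5 had CCR7. TRGV1 was found in 38 of the 54 and in 8 of the 44 cells without TRAV19. Whether these cells are descendants of 1 cell was not tested.

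TRGV9, a gamma chain segment, was found in 10 gated cells (6.67%), in 0.695% of cells with neither gene and in 53.4% of cells with both. Of these 10 cells, 9 had KLRB1, 9 had TYROBP, 9 had GZMK and none had another named TRAV segment. Among all 59 CD3+ TRAV10-negative cells with TRGV9, 10 had ZBTB16 (16.9%, 8.44 to 29.0), and 36 had KLRB1. TRAC, the constant gene of the alpha chain, was found in 9 of the 10 gated cells. TRAC was found in 8 of the 18 cells with TRBV11-1 and in 73.8% of the other 122 gated cells.

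Among the other segments the ZBTB16 shares lay within wide intervals. Segments carried by at least 150 CD3+ TRAV10-negative cells were compared. The share ranged from 0 of 156 cells for TRBV29-1 to 5.76% (3.56 to 8.76) of 347 cells for TRBV11-1. For TRBV29-1, 3 cells would make 1.92%, and the exact binomial interval, drawn in the figure, reaches 2.34%. TRGV1 had 4.46% (2.78 to 6.73) of 471 cells. The 2 segments overlap, as 13 of the 21 TRGV1 cells with ZBTB16 were among the 18 gated cells with TRBV11-1. The other 8 were among the 122 gated cells without TRBV11-1, at 2 or more UMIs, or TRGV9, a share of 6.56% (2.87 to 12.5). Of all CD3+ TRAV10-negative cells, 6.54% had TRGV1. TRAV12-3 had 1.12% (0.450 to 2.29) and TRAV12-2 1.26% (0.509 to 2.59). The share of all 7197 CD3+ TRAV10-negative cells was 2.08% (1.77 to 2.44). A segment was counted from 1 UMI here, and the median depth of its cells was not matched.

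**Figure D3:**
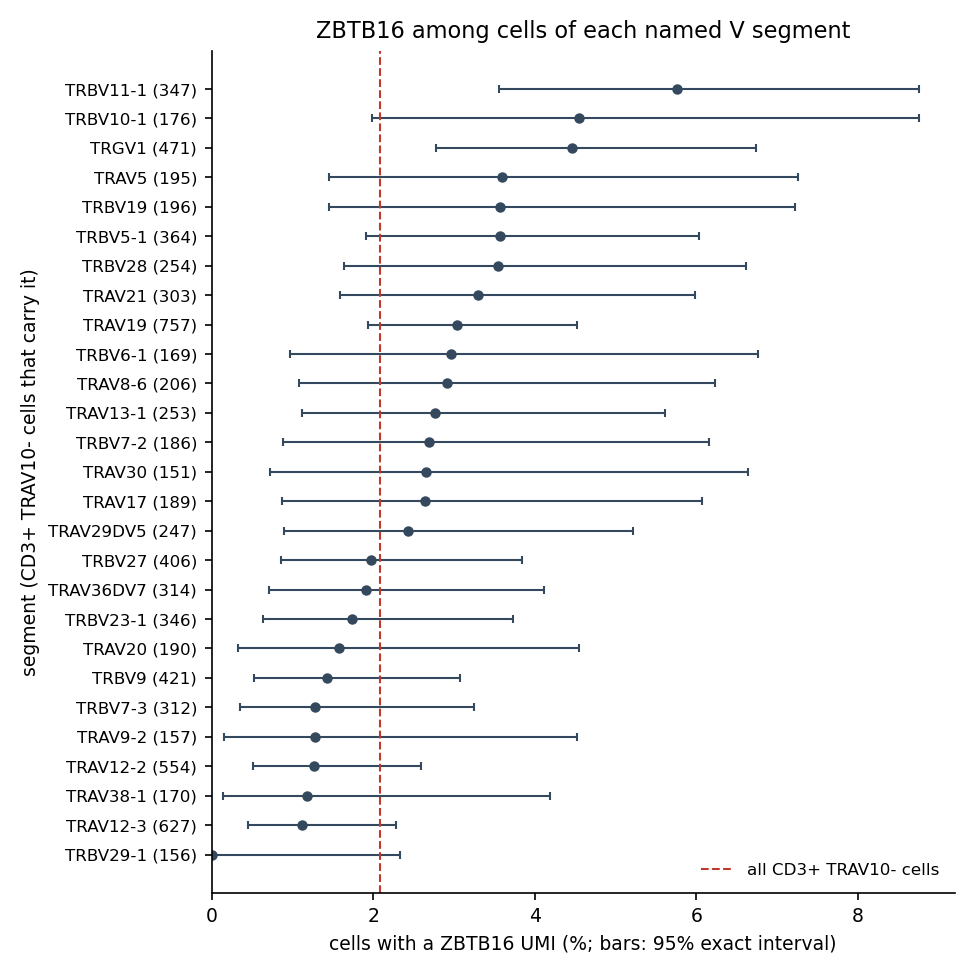
Share of CD3+ TRAV10-negative cells with a ZBTB16 UMI (x axis, %) among the cells that carry each named V segment (y axis, number of cells in parentheses, segments with at least 150 cells); bars are 95% exact binomial intervals and the dashed line is the share of all CD3+ TRAV10-negative cells, 2.08%. The intervals of TRBV11-1 and TRGV1 lie above the line, and those of the other segments cross it. Of the 21 TRGV1 cells with ZBTB16, 13 also had TRBV11-1 at 2 or more UMIs, so the 2 are not separate.

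The other 122 gated cells had neither TRBV11-1, at 2 or more UMIs, nor TRGV9. Of these, 22 had KLRB1 and 100 did not. The 22 cells with KLRB1 had NKG7 in 17, CST7 in 18, GZMK in 11 and GZMB in 8 (36.4%, 17.2 to 59.3), where GZMB was in 12 of the 18 cells with TRBV11-1 and 7 of the 10 with TRGV9, and had CCR6 in 9 (40.9%). They were the most deeply read of the 4 subsets, with a median of 5732 UMIs and 1779.5 genes, against 4908 and 1418 in the 100 cells. KIR3DL12, a killer cell immunoglobulin-like receptor, was found in 4 of the 18 cells with TRBV11-1, in none of the 10 with TRGV9 and in 1 of the 122 others. The 100 cells without KLRB1 had CCR7 in 61, CD7 in 76 and LEF1 in 46, and had NKG7 in 31 and GZMB in 14. They were compared with 5346 cells with neither gate gene that were chosen in the same way, without KLRB1, TRGV9 or 2 UMIs of TRBV11-1. The log2 ratio was 0.38 (0.11 to 0.63) for CCR7, 0.56 (0.38 to 0.73) for CD7, 1.38 (0.85 to 1.87) for TNFRSF4, 1.07 (0.63 to 1.48) for THY1 and -2.37 (-2.64 to -2.12) for GZMB. The median depth of those 5346 cells was 3618 UMIs. These 100 cells made up most of the gate.

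**Figure D4:**
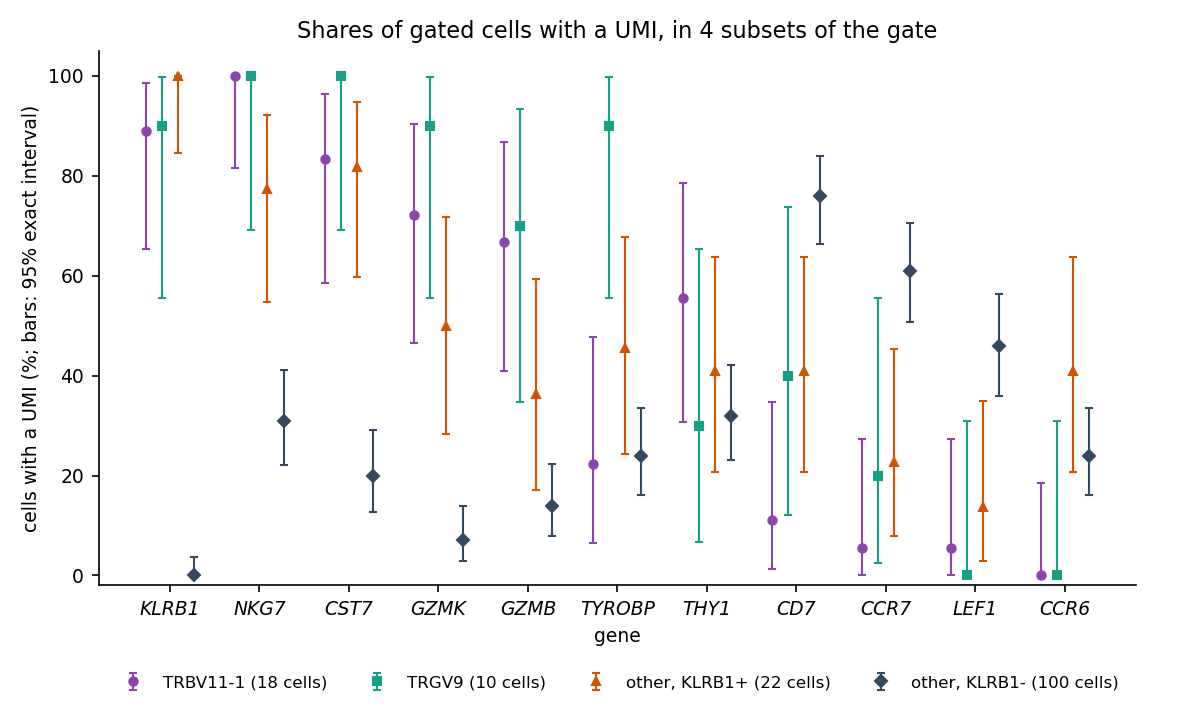
Share of cells with a UMI (y axis, %) for 11 genes (x axis) in 4 subsets of the 150 gated cells: 18 with TRBV11-1, 10 with TRGV9, and the other cells with KLRB1 (22) and without it (100); bars are 95% exact binomial intervals. NKG7 and CST7 are common in the first 3 subsets, CCR7, CD7 and LEF1 in the last, and CCR6 was found only in the 2 subsets of other cells. The KLRB1 shares of the 2 subsets of other cells are set by how they were chosen.

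The gated cells were also split by their number of ZBTB16 UMIs, the value that the gate used, as a description. The 20 cells with 2 or more UMIs had KLRB1 in 10 cells and TYROBP in 10 (50% each, 27.2 to 72.8), against 28.5% (20.9 to 37.0) for each in the 130 cells with 1 UMI, and these intervals overlap. Their median was 4080.5 UMIs per cell against 4850.5. For THY1 the shares were 65% (40.8 to 84.6), from 13 of the 20, and 31.5% (23.7 to 40.3). At 1 or more UMIs, TRBV11-1 was found in 6 of the 20 and in 10.8% of the 130. CCR7 was found in 7 of the 20 cells and in 47.7% of the 130.

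The share of cells with ZBTB16 was also taken within gates on other genes, among CD3+ TRAV10-negative cells. It was 0.739% (0.338 to 1.40) of 1218 cells with GZMB and CX3CR1, 3.52% (2.52 to 4.78) of 1107 cells with CCR7 and LEF1, and 6.07% (4.21 to 8.41) of 544 cells with CCR6. Median depths were 3412, 4426 and 4875 UMIs, which rise in the same order. After thinning, with all gates set on the thinned counts, the shares were 0.137% (0.003 to 0.761) for GZMB and CX3CR1, 1.23% (0.400 to 2.84) for CCR7 and LEF1 and 1.15% (0.238 to 3.32) for CCR6. For cells with both KLRB1 and TYROBP, the share was 5.88% (3.72 to 8.77) of 374 cells before and 6.25% (3.27 to 10.7) of 192 cells after thinning. All CD3+ TRAV10-negative cells had 1.02% after thinning.

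The tags were added after the bead sort and were not used in it. Both tags were above background in 47.8% of all kept cells. A tag counted as above background where it exceeded the 90th percentile of B gene cells, a limit of 191 UMIs of CD4 FB and 330.5 of CD8 FB. CD4 FB was above it in 91.3% (85.6 to 95.3) of gated cells, 98.6% of cells with both genes and 93.1% of cells with neither. CD8 FB was above it in 66.0% (57.8 to 73.5), 64.4% and 50.5% (49.3 to 51.7). Weighted to the UMI counts of the gated cells, the cells with neither gene had CD8 FB above it in 59.9%, inside the interval of the gated cells, and CD4 FB in 95.7%, just above that interval. Both tags were above it in 90 of the 150 gated cells, CD4 FB alone in 47, CD8 FB alone in 9 and neither in 4. The median CD8 FB was 492 UMIs in gated cells and 334 in cells with neither. The CD8 FB limit lay next to the median of all kept cells, 335 UMIs, so cells under it are not read as lacking CD8.

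The tags differed within the gate. Of the 10 cells with TRGV9, CD4 FB was above background in 3, with a median of 70 UMIs where the B gene cells had 90, and CD8 FB was in 7. All 18 cells with TRBV11-1 had CD4 FB above background, and 11 had CD8 FB. The 22 other cells with KLRB1 had a median CD8 FB of 935.5 UMIs (quartiles 520 and 2090.75), against 450.5 (251.25 and 858) in the 100 without, beside the difference in depth given above. In RNA, CD8A was found in 15 of those 22 cells and in 51 of the 100. CD8B, the second chain of the classical CD8 coreceptor, was found in 12 of the 150 gated cells, in none of the 73 cells with both genes, which allows up to 4.11%, and in 3.94% of cells with neither. CD4 RNA was found in 48.0%, 49.3% and 48.1% of the 3 groups.

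**Figure D5:**
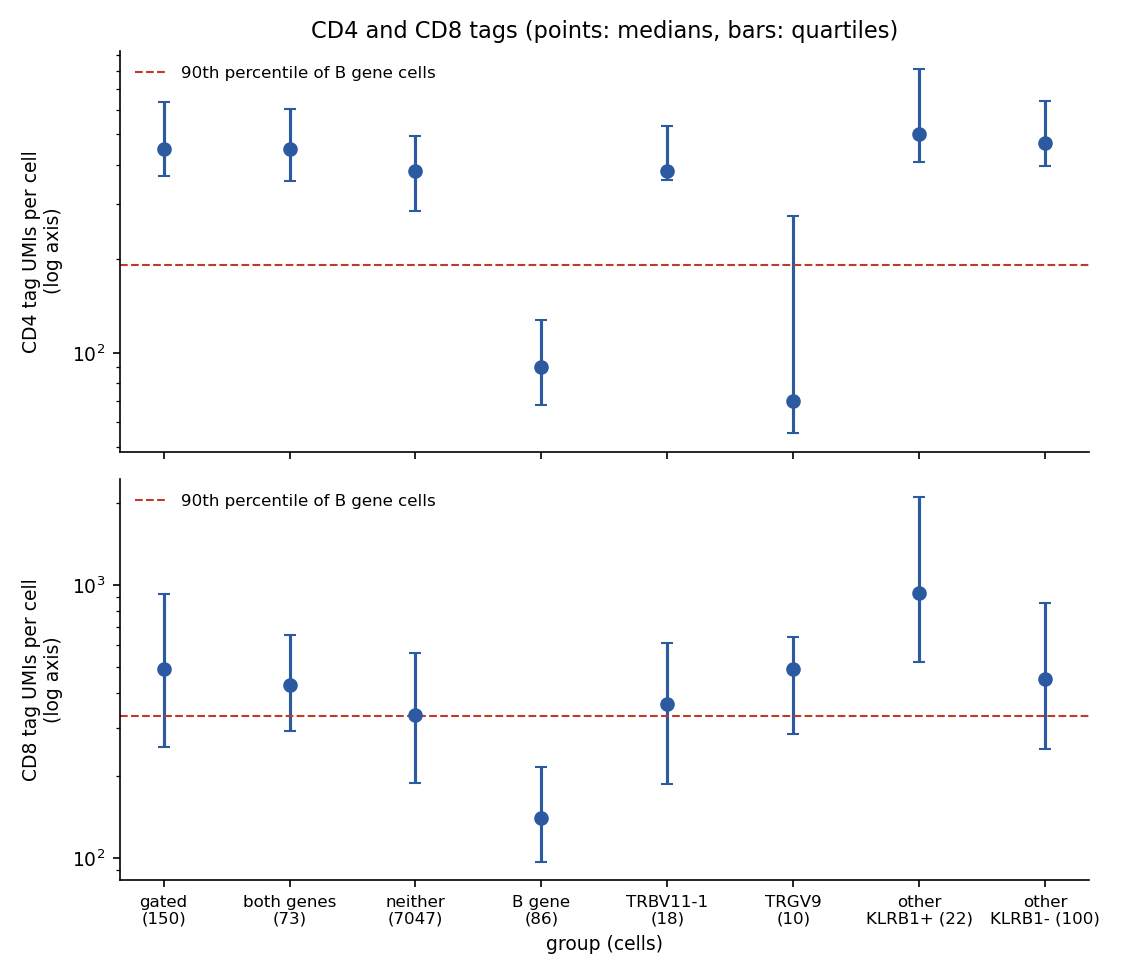
CD4 FB (top) and CD8 FB (bottom) as tag UMIs per cell (y axis, log axis) in the 3 groups of cells, the B gene cells and the 4 subsets of the gated cells (x axis, number of cells); points are medians, bars are quartiles, and the dashed line is the 90th percentile of B gene cells. The CD4 FB median of the TRGV9 cells, 70, lies below the line and that of the other subsets lies above it.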

How the data were processed

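A 5′ RNA library and a tag library were made from the same cells. The authors used Cell Ranger 3.1.0 with STAR 2.5.1b on Mmul_10, and the deposited counts are raw UMIs of 35432 genes and 2 tags. No annotation release was found in the labels or methods. The file names 23817 genes, and a gene table named 653 more. The cell limits were 200 to 4000 genes and 20% mitochondrial UMIs, with 2 features without a symbol counted as mitochondrial. Positions are from RefSeq on Mmul_10, matched by symbol for 148 of 159 genes. CPM were summed counts of a group scaled to 1000000, with exact Poisson intervals. Shares have Clopper-Pearson intervals and ratios exact intervals from the binomial split, all at 95%, and PCR or sampling of other animals is not covered. A count of 0 allows up to 3 counts. Named genes were the fixed marker lists and the 10 most changed genes by CPM + 10 in each direction, among genes with a symbol and at least 50 UMIs in the higher group, without gate genes and receptor segments. The members and lists were chosen with earlier results of these data known. Results for some genes are not reported here. No doublet caller was run, and an alternative left out possible doublets, the cells with 3 or more B cell gene UMIs and the 5% of cells with most UMIs. Other alternatives changed the gate, filters, thinning, weighting, averaging and pseudocount. Python 3.11.15, numpy 2.4.6, scipy 1.17.1 and pandas 2.3.3 were used. The 2-fold call and the ratio intervals were tested on simulated group sums without spread between cells, and the other steps were not.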

Additional observations from a re-analysis of the deposited data

How the results depend on the processing

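No paired analysis was possible because the 2 libraries come from the same cells of 1 animal. Requiring 2 or more UMIs of ZBTB16 left 20 gated cells and 19 cells with both genes. Thinning with gates set on the thinned counts left 69 and 30, so that fewer cells stand behind both settings. The share of kept cells in the gate was then 0.263% and 0.971%, genes at least 2-fold higher than in cells with neither gene numbered 160 and 91 and genes lower 882 and 610, and the log2 ratio of KLRB1 was 2.25 and 1.37. At 2 or more UMIs, KLRB1 was in 50% of gated cells and CD4 FB above background in 85%, and over cells with both genes the log2 ratios of CTSW and KLRB1 turned to 0.31 and 0.046. Pseudocounts of 1 and 50 CPM gave 20 and 1 genes higher and 165 and 5 lower, a minimum of 50 CPM gave 2 and 18, and no filter on level gave 13 higher. The KLRB1 ratio was 0.92 without possible doublets, for which H3C13 turned to 0.11, and 0.89 as a mean over cells. With another named TRAV segment required of the gated cells only, CD4 FB was above background in 95.3% and CD8 FB in 74.4%. Without the 28 gated cells with TRBV11-1 or TRGV9, a setting chosen after seeing the data, 67 genes were lower, the KLRB1 ratio turned to -0.55 (-0.48 with such cells left out of both groups) and its share was 18.0%. The causes were not tested beyond the cell numbers given. Of 264 values of named genes other than KLRB1 over cells with neither gene and 220 over cells with both, KLRB1 included, 214 and 200 stayed within the counting interval, and 2 and 2 changed sign, CCR7 over cells with neither among them (-0.37, thinned). Detection of ZBTB16 rests on a single UMI in 130 of the 150 gated cells.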
